A study of Mus musculus with 6 samples.

Results

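Steroid hormones reach the fibroblasts of the mammary gland from the blood, and enzymes inside the cell decide how much of each hormone stays active. The genes of 10 such enzymes are described here, namely *Akr1c18*, *Akr1c14*, *Akr1c13* and *Akr1c12* of the Akr1c family, *Hsd11b1*, *Hsd17b11*, *Srd5a1*, *Srd5a3*, *Cyp1b1* and *Sult1e1*. These 10 genes, of the 27179 in the count table, were selected by symbol as steroid-metabolizing enzymes after an earlier comparison of the same CD34hi and CD34lo libraries had been seen. The values of the 10 genes in that comparison are therefore a description and carry no test, while tests are given for other genes of steroid metabolism. The lists of those genes were also drawn up with earlier results of these libraries known, so their adjusted p-values are not independent of that choice.

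The data were RNA-seq counts from Lin–CD24–Pdgfrα+ fibroblasts of the mammary glands of pubertal mice, 6 weeks of age and of the strain FVB/N (FVB/NJ in the study's methods), for which the labels name no introduced allele and no treatment. Cells positive for CD31, CD45, TER-119 or CD24 had been excluded by sorting, and the remaining Pdgfrα+ cells were divided by surface CD34 into CD34hi and CD34lo. Each of 3 pools of 2 mice gave 1 CD34hi library (labelled CD34pos) and 1 CD34lo library (labelled CD34neg), which made 3 libraries of each population, each averaging over 2 animals. Levels are given as CPM, the counts scaled to a library total of 1e+06 after TMM scaling. Differences are given as log2 fold changes of CD34hi over CD34lo, with standard errors (SE) derived from the test statistic of the fit.

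By way of background, progesterone, androgens, estrogens and glucocorticoids are all handled by a small set of reactions. Reductases of the Akr1c family and hydroxysteroid dehydrogenases (HSDs) turn ketones into alcohols or back, 5α-reductases saturate the ring that progesterone and testosterone share, cytochrome P450 enzymes add hydroxyl groups, and sulfotransferases attach sulfate, which blocks receptor binding. In the mammary gland, progesterone and estrogen drive the growth and branching of ducts during puberty, and stromal cells carry receptors for both as well as for glucocorticoids.

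The libraries held between 28764779 and 52402410 counts on genes, so that 3 counts, the smallest amount taken as detectable, lay between 0.0572 and 0.104 CPM per library, a floor that covers counting error only. Of all genes, 15219 had enough counts to be tested. The CD34hi library of pool 3 stood apart in 136 of these genes (0.894%), which were over 2-fold above both other CD34hi libraries, against 15 and 21 such genes in the libraries of pools 1 and 2. The summed level of 5 fibroblast markers (*Dcn*, *Lum*, *Pdgfra*, *Col1a2* and *Igfbp5*) was 28378 to 31844 CPM in CD34hi and 31490 to 36415 CPM in CD34lo. These similar sums held opposite differences. *Igfbp5* was at 8401 CPM in CD34hi and 767 CPM in CD34lo. *Lum*, *Pdgfra* and *Col1a2* passed the test as higher in CD34lo, and *Dcn* did not pass. Markers of other cells were low but differed between the populations. Those of macrophages (5 genes) summed to 2.57–3.20 CPM in CD34hi and 27.3–48.6 CPM in CD34lo, those of pericytes (2 genes) to 1.59–2.46 and 7.36–11.5 CPM, those of endothelial cells (2 genes) to 5.86–19.6 and 21.9–41.0 CPM, and those of epithelial cells (6 genes) to 34.7–41.0 and 68.7–69.6 CPM. Markers of muscle (4 genes) summed to 1.27–1.57 CPM in CD34hi and 3.50–3.88 CPM in CD34lo, and those of adipocytes (3 genes) to 0.179–0.635 and 0.482–1.81 CPM. Keratinocyte markers (2 genes) summed to 14.3–19.9 CPM in CD34hi and 3.59–7.12 CPM in CD34lo, and Schwann cell markers (4 genes) to 42.1–52.1 and 20.8–26.8 CPM. Single genes carried several of these sums. In the epithelial list, *Acta2* was at 3.24 CPM in CD34hi and 33.3 CPM in CD34lo, while *Epcam*, *Krt8*, *Krt18* and *Krt14* did not pass the test, and in the macrophage list *Fcgr2b* was at 0.518 and 35.9 CPM, while *Cd68* and *Fcgr1* did not pass. In the Schwann cell list, *Mbp* was at 41.3 CPM in CD34hi and 11.3 CPM in CD34lo, while *Col20a1* was higher in CD34lo. No marker was at 0 in all 6 libraries, and the part of these cells in the values that follow was not tested.

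The Akr1c genes lie together, and their sequences bear on how well their reads can be told apart. In the count table (GRCm38/mm10), 8 Akr1c genes fell within 527 kb of chromosome 13, from 4059591 to 4586543. The longest open reading frame of each of the 8 was 972 bases. *Akr1c12* and *Akr1c13* were 96.2% identical over these bases and *Akr1c6* and *Akr1c20* were 92.3% identical, whereas all other pairs of the family, including *Akr1cl* on chromosome 1, were 71.1% to 79.1% identical. The map of coding identity shows these 2 close pairs. Of all runs of 50 bases in the transcripts of *Akr1c13* and *Akr1c12*, 24.2% and 28.6% occurred in the other gene of the pair, so reads of this pair may be shared and both genes are uncertain. Such runs made up 5.8% in *Akr1c14* (shared with *Gm18857*) and 0.581% in *Akr1c18* (shared with *Akr1cl*). Among the remaining genes only *Srd5a1* had any, at 15.1% (shared with *Gm17108*).

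**Figure D1:**
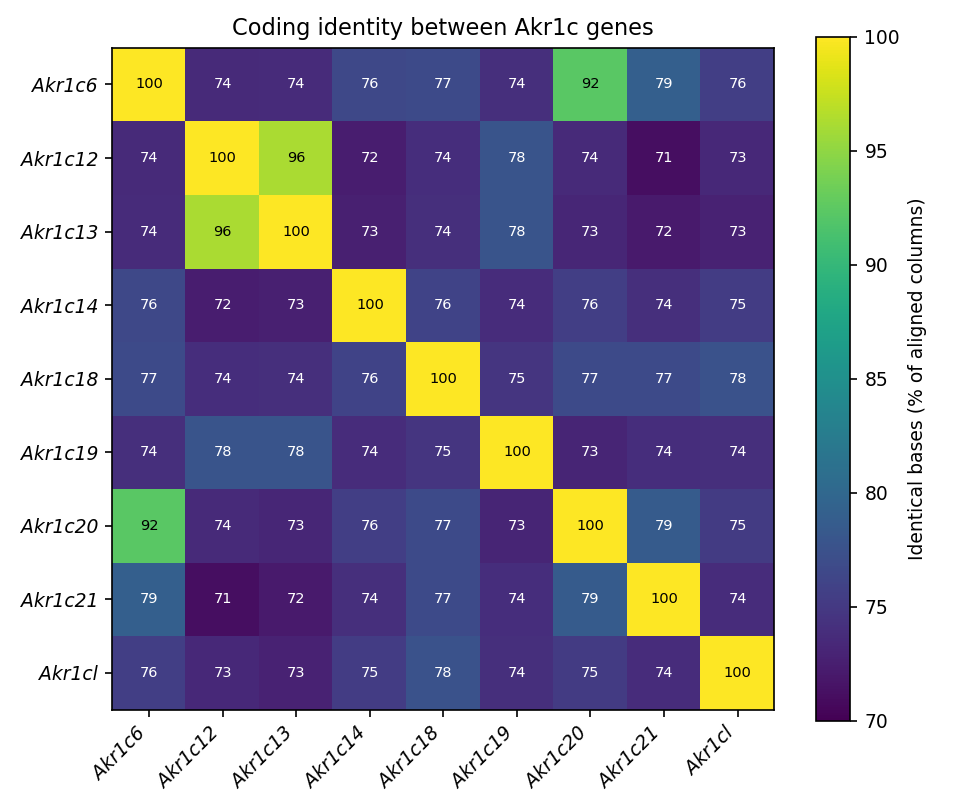
Identity between the longest open reading frames of 9 Akr1c genes, as percent of aligned columns, with the color scale running from 70 to 100. *Akr1c12* with *Akr1c13* (96.2%) and *Akr1c6* with *Akr1c20* (92.3%) stand out, and *Akr1c14* with *Akr1c18* share 76.0%.

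The bases before the start of the Akr1c genes show how far this likeness reaches outside the reading frames. Shown here, 5′ to 3′, are the 250 bases before the RefSeq start (build GRCm38.p6) of the 4 Akr1c genes described here. *Akr1c14* and *Akr1c18* are shown because they were the most abundant of the family, and they were 50.9% identical over this stretch. *Akr1c12* and *Akr1c13* are shown because they were 92.5% identical here as well, and capitals mark the bases that differ or are unpaired in their alignment, 15 in each.
Akr1c18 (chr13:4150647-4150896, minus strand): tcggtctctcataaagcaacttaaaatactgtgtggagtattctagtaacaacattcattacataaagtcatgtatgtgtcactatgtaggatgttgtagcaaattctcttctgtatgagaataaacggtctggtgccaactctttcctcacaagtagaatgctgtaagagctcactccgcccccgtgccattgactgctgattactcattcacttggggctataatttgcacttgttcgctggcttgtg
Akr1c14 (chr13:4059341-4059590, plus strand): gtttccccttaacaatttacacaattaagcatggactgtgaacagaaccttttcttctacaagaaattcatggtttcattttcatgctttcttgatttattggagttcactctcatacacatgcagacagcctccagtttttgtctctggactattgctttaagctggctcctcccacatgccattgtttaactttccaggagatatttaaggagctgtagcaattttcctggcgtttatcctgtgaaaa
Akr1c12 (chr13:4279400-4279649, minus strand): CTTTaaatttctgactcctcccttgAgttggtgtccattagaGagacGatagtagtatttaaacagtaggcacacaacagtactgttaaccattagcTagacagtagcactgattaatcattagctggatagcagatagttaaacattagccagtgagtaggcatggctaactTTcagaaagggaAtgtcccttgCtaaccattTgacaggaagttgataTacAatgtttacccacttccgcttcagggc
Akr1c13 (chr13:4190937-4191186, plus strand): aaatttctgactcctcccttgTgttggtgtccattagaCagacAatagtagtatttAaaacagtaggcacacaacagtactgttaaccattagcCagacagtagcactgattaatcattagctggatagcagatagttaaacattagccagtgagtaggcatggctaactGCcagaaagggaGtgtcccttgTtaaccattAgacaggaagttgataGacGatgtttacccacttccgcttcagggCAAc

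A set of 4 short motifs was searched on both strands of these stretches, namely GCGTG (the core bound by the aryl hydrocarbon receptor), TGACNNNGC (the antioxidant response core), ACANNNTGT (a relaxed steroid receptor core) and TATAAA (a core promoter element). They occurred in 28.2%, 10.2%, 5.84% and 12.4% of 32851 mouse promoters of the same length. None of the 4 was found before *Akr1c18*, *Akr1c14*, *Akr1c13* or *Akr1c12*, which says only that these letters are not in this window. *Cyp1b1*, a known target of the aryl hydrocarbon receptor, held GCGTG once, read on the opposite strand and 76 to 72 bases before the start, and it is marked in capitals here.
Cyp1b1 (chr17:79715062-79715311, minus strand): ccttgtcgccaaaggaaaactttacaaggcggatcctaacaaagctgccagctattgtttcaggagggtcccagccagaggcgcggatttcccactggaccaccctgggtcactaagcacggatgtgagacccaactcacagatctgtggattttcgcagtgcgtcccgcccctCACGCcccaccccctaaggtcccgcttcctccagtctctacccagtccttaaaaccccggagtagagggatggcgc
*Hsd11b1*, *Hsd17b11* and *Srd5a1* also held GCGTG once each, and *Hsd11b1* and *Srd5a3* held the antioxidant response core. The *Hsd11b1* window (chr1:193242361-193242610, minus strand) lay inside the gene as counted, which spans 193221640 to 193264045. The bases before the outer start of that gene were not searched.

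*Akr1c18*, the 20α-hydroxysteroid dehydrogenase that converts progesterone to a form with little activity at its receptor, differed most of the 10 genes. Its level in pools 1, 2 and 3 was 183, 206 and 130 CPM in CD34hi and 1.79, 0.971 and 2.12 CPM in CD34lo. Every CD34hi library lay far above every CD34lo library. The means were 173 ± 39.1 and 1.63 ± 0.592 CPM (SD, n = 3), a log2 fold change of 6.71 (SE 0.30), or 105-fold. Within pools 1, 2 and 3, the difference was 6.64, 7.66 and 5.91 on the log2 scale, and with libraries left out it ranged from 6.34 to 7.07. In bulk libraries of this kind, fewer cells that express a gene and less RNA per cell cannot be told apart.

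*Akr1c14*, the 3α-hydroxysteroid dehydrogenase that acts on 5α-reduced progesterone and androgens, was the most abundant Akr1c gene in both populations. It stood at 368, 548 and 335 CPM in CD34hi and at 32.4, 89.4 and 47.2 CPM in CD34lo. The libraries did not overlap, and pool 2 gave the highest level of each population. The means were 417 ± 114 and 56.3 ± 29.6 CPM (SD, n = 3), with a log2 fold change of 2.89 (SE 0.37).

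*Akr1c13* and *Akr1c12*, the closely related pair, had the same direction at far lower levels. *Akr1c13* was at 6.57, 6.26 and 5.07 CPM in CD34hi and at 0.479, 0.539 and 0.482 CPM in CD34lo, a log2 fold change of 3.58 (SE 0.24). *Akr1c12* rested on 23, 23 and 24 counts in CD34hi and 8, 3 and 3 counts in CD34lo, a log2 fold change of 2.18 (SE 0.45). In neither gene did the populations overlap. Per kb of gene length, *Akr1c13* exceeded *Akr1c12* by 12.8, 9.86 and 9.58-fold in the CD34hi libraries. In the CD34lo libraries the ratios were 3.2, 5.0 and 5.0. These rested on 26, 15 and 15 counts of *Akr1c13*, and in pools 2 and 3 *Akr1c12* was at the floor of 3 counts. As reads of this pair may also be shared, no difference between the populations is read from these ratios.

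The make-up of the family therefore differed between the populations. *Akr1c14* made up 65.8% to 71.7% of all Akr1c counts in CD34hi and 92.2% to 97.1% in CD34lo, while *Akr1c18* made up 27.0% to 32.7% and 1.05% to 5.09%. Per kb, the ratio of *Akr1c14* to *Akr1c18* was 0.963, 1.27 and 1.23 in CD34hi, so that the pair was at a similar level, and 8.69, 44.2 and 10.7 in CD34lo. The family as a whole summed to 559, 764 and 473 CPM in CD34hi and to 35.2, 92.1 and 50.4 CPM in CD34lo.

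**Figure D2:**
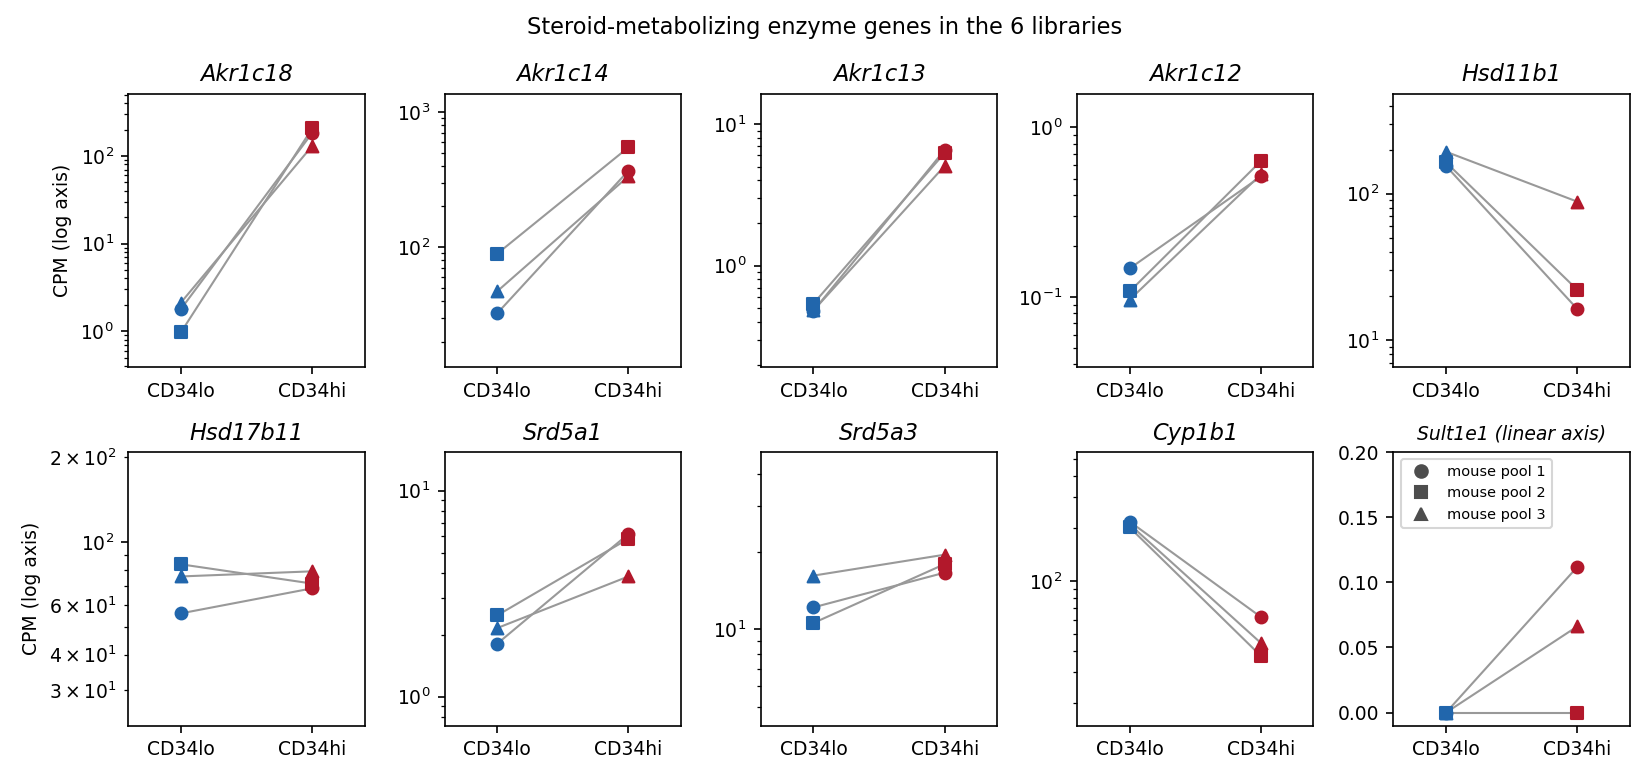
Level of each of the 10 enzyme genes in CPM (log axis, linear for *Sult1e1*) in CD34lo (blue) and CD34hi (red), with 1 point per library and lines joining the libraries of a mouse pool. The 4 Akr1c genes are higher in CD34hi in all 3 pools, *Hsd11b1* and *Cyp1b1* are lower in all 3, and the *Hsd11b1* level of the CD34hi library of pool 3 is the closest of its population to CD34lo.

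The remaining Akr1c genes of chromosome 13 were at or near the detection floor. *Akr1c19* had 3, 10 and 18 counts in CD34hi and 0, 2 and 0 in CD34lo, and *Akr1c6*, *Akr1c20* and *Akr1c21* had 3, 6 and 6 counts over all libraries, so none was tested. *Akr1cl*, the relative on chromosome 1, was tested and was higher in CD34hi, at 0.984, 2.51 and 2.204 CPM against 0.221, 0.827 and 0.482 CPM, with a log2 fold change of 1.95 (SE 0.54, adjusted p = 0.0211). Its call was lost when the CD34hi library of pool 2 (1.70, adjusted p = 0.0759) or pool 3 (1.83, adjusted p = 0.0552), the CD34lo library of pool 1 (1.56, adjusted p = 0.0562) or pool 3 (1.96, adjusted p = 0.0621), or both libraries of pool 3 (1.83, adjusted p = 0.126) were left out.

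Genes around the Akr1c cluster showed smaller differences. With 500 kb on either side, the window held 20 genes, 12 of them outside the Akr1c family. Of these 12, 5 had enough counts to be tested, 5 had no count in any library, and 2 passed the test in opposite directions. *Asb13* was higher in CD34hi (log2 fold change 0.81, SE 0.21, adjusted p = 0.0151), and *Net1* was higher in CD34lo (log2 fold change −0.77, SE 0.22, adjusted p = 0.0227). *Akr1e1*, an aldo-keto reductase of another subfamily directly beside the cluster, did not pass (log2 fold change 0.21, SE 0.20, adjusted p = 0.432).

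**Figure D3:**
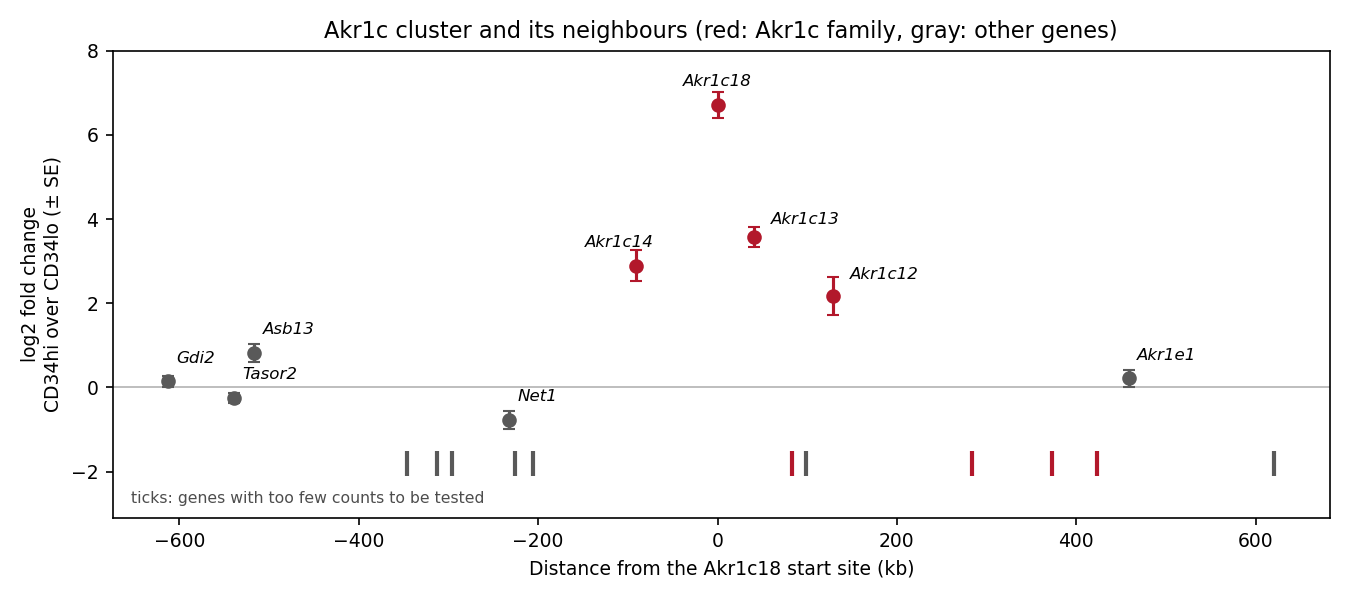
Log2 fold change of CD34hi over CD34lo (points, with SE as bars) for the genes of the Akr1c cluster (red) and its neighbors (gray), plotted against distance in kb from the start of *Akr1c18*; ticks mark genes with too few counts to be tested. *Akr1c18* reaches 6.71, the 3 other tested Akr1c genes of the cluster lie between 2.18 and 3.58, and the tested neighbors lie between −0.77 and 0.81.

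The 5α-reductase genes were at low to moderate levels. *Srd5a1*, which reduces progesterone and testosterone in peripheral tissues, was at 6.17, 5.85 and 3.84 CPM in CD34hi and at 1.81, 2.48 and 2.15 CPM in CD34lo, a log2 fold change of 1.31 (SE 0.25). The populations did not overlap. *Srd5a3*, best known for its role in dolichol synthesis and N-glycosylation, was at 16.6, 17.9 and 19.4 CPM in CD34hi and at 12.1, 10.6 and 16.1 CPM in CD34lo. The lowest CD34hi library lay just above the highest CD34lo library, and the log2 fold change was 0.47 (SE 0.17).

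*Hsd11b1* encodes 11β-HSD1, which in intact cells regenerates active corticosterone from its inert ketone. Its level was 16.3, 22.04 and 88.3 CPM in CD34hi and 155, 164 and 194 CPM in CD34lo. All CD34lo libraries lay above all CD34hi libraries, but the CD34hi library of pool 3 lay between the other CD34hi libraries and CD34lo, and on a log scale nearer to CD34lo. The mean was 42.2 ± 40.0 CPM in CD34hi and 171 ± 20.3 CPM in CD34lo (SD, n = 3), with a log2 fold change of −2.02 (SE 0.56). Without the CD34hi library of pool 3, the log2 fold change was −3.15. Within pools 1, 2 and 3 the difference was −3.25, −2.89 and −1.13, and with the pool as a block the log2 fold change was −2.43. *Hsd11b1* ranked 15 among all tested genes by its excess in the CD34hi library of pool 3 over the other CD34hi libraries, and the part of that library's difference in this value was not tested.

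*Hsd17b11*, a 17β-hydroxysteroid dehydrogenase of lipid droplets, had overlapping levels in both populations. It was at 68.7, 71.5 and 79.0 CPM in CD34hi and at 56.0, 83.6 and 75.7 CPM in CD34lo. The means were 73.1 ± 5.30 and 71.8 ± 14.2 CPM (SD, n = 3), the within-pool differences had both signs (0.29, −0.23 and 0.06), and the log2 fold change was 0.03 (SE 0.16). An opposite-strand gene that overlaps *Hsd17b11* held 90 counts over all libraries against 16970 for *Hsd17b11*.

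*Cyp1b1*, the cytochrome P450 that turns estradiol into catechol estrogens, was higher in CD34lo. It was at 62.1, 37.2 and 44.1 CPM in CD34hi and at 218, 202 and 210 CPM in CD34lo. The CD34lo libraries lay close together and well above the CD34hi libraries. The means were 47.8 ± 12.9 and 210 ± 8.05 CPM (SD, n = 3), with a log2 fold change of −2.13 (SE 0.19) and within-pool differences of −1.81, −2.44 and −2.25.

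*Sult1e1*, the sulfotransferase that inactivates estrogens, was barely detected. It had 5, 0 and 3 counts in CD34hi and no count in any CD34lo library, too few to be tested or to give a fold. At these depths, a level up to the floor of each library could not have been seen.

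Per kb of gene length, *Akr1c14* (170 ± 46.8 CPM per kb, SD, n = 3) and *Akr1c18* (148 ± 33.3) stood at the top in CD34hi and overlapped each other. *Hsd17b11* (43.0 ± 3.12) and *Hsd11b1* (29.2 ± 27.7) followed and overlapped, as did *Srd5a3* (10.2 ± 0.815) and *Cyp1b1* (9.33 ± 2.51), and *Hsd11b1* also overlapped *Cyp1b1*. *Akr1c13* (4.84 ± 0.644), *Srd5a1* (1.98 ± 0.475) and *Akr1c12* (0.454 ± 0.0533) were lower and did not overlap each other. In CD34lo, the order was led by *Hsd11b1* (118 ± 14.1), followed by *Hsd17b11* (42.3 ± 8.36) and *Cyp1b1* (41.0 ± 1.57), which overlapped, and then by *Akr1c14* (23.0 ± 12.1), which overlapped *Hsd17b11* but not *Cyp1b1*. *Srd5a3* (7.32 ± 1.62), *Akr1c18* (1.39 ± 0.505), *Srd5a1* (0.806 ± 0.126), *Akr1c13* (0.406 ± 0.0275) and *Akr1c12* (0.0952 ± 0.0218) came below, with overlap between *Akr1c18* and *Srd5a1*. *Akr1c18* thus held rank 2 in CD34hi and rank 6 in CD34lo, and *Hsd11b1* rank 4 and rank 1.

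**Figure D4:**
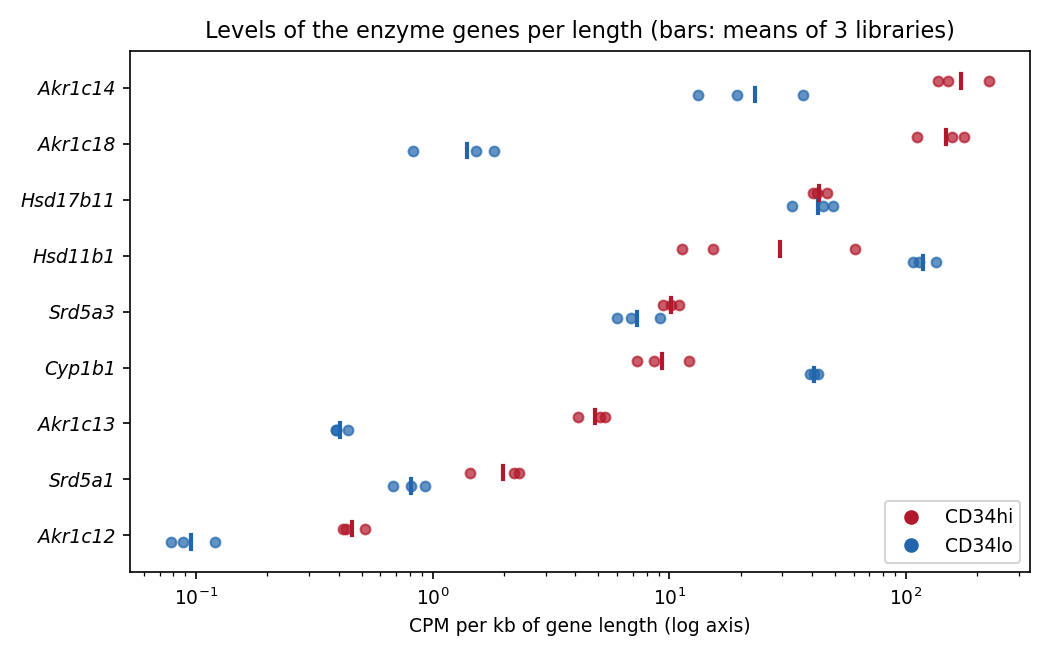
Level of 9 of the enzyme genes in CPM per kb of gene length (log axis) in CD34hi (red) and CD34lo (blue), with 1 point per library and bars at the mean of 3 libraries; *Sult1e1* is left out because 4 of its 6 libraries held no count. *Akr1c18* spans the widest gap between populations (148 against 1.39), and *Hsd17b11* has almost the same mean in both (43.0 against 42.3).

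Of the 10 genes, 9 had enough counts to be tested. At an adjusted p under 0.05, 5 of them passed as higher in CD34hi (16.9% of all tested genes did) and 2 as higher in CD34lo (18.7% of all), and 8 of the 9 had populations that did not overlap (50.1% of all). The median log2 fold change of the 9 was 1.31, against −0.0064 over all tested genes. Since the genes were picked with this comparison known, nothing is read from these counts, this median or the calls that follow. *Hsd17b11* and *Srd5a3* were the 2 that did not pass, and with the pool as a block 8 passed, *Srd5a3* among them. *Hsd11b1* no longer passed in 4 of 18 alternative analyses, which left out both libraries of pool 1 (log2 fold change −1.67) or pool 2 (−1.73), the CD34hi library of pool 2 (−1.70) or the CD34lo library of pool 3 (−1.91). *Srd5a1* did not pass without both libraries of pool 1 (log2 fold change 1.09), and *Akr1c12* did not pass without both libraries of pool 2 (2.03).

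Whether other genes of steroid handling differed was examined in 10 lists with 85 genes in the table, none of them among the 10 enzymes. Of the 57 that were tested, 15 were higher in CD34hi (16.9% of all tested genes were), 16 were higher in CD34lo (18.7% of all) and 26 did not pass. The median log2 fold change of the 57 was −0.0064, like that of all tested genes. The same shares of all tested genes are the background for the counts of each list below. The 7 lists of enzymes, with their cofactor and transport proteins, accounted for 34 of the tested genes, of which 10 were higher in CD34hi and 8 in CD34lo, so that these genes had no common direction.

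Of the other 17β-HSD genes, 9 were tested, 2 were higher in CD34hi and 1 in CD34lo. *Hsd17b4*, a peroxisomal enzyme of fatty acid oxidation, was at 60.5, 64.1 and 60.1 CPM in CD34hi and 42.1, 51.3 and 45.9 CPM in CD34lo (log2 fold change 0.41, SE 0.11, adjusted p = 0.0210). *H2-Ke6*, the current symbol of *Hsd17b8*, had a log2 fold change of 0.68 (SE 0.16, adjusted p = 0.0101), and *Hsd17b10*, a mitochondrial enzyme, one of −0.67 (SE 0.13, adjusted p = 0.00407). These differences were small, and leaving out both libraries of a pool ended the call of each: *Hsd17b4* without pool 1 (0.38, adjusted p = 0.126), pool 2 (0.46, adjusted p = 0.0843) or pool 3 (0.42, adjusted p = 0.0619), *H2-Ke6* without pool 2 (0.69, adjusted p = 0.0747) and *Hsd17b10* without pool 1 (−0.58, adjusted p = 0.0634). The call for *Hsd17b4* was also lost without the CD34hi library of pool 2 (adjusted p = 0.0903) or the CD34lo library of pool 3 (adjusted p = 0.0526). In all of these fits the log2 fold changes kept their direction. Over all genes, 3468, 3633 and 4817 passed without pools 1, 2 and 3, against 5411 with all libraries. *Hsd17b12*, *Hsd17b7* and *Dhrs11*, the most abundant that did not pass, had log2 fold changes between 0.00045 and 0.25. Of the 3β-HSD list, *Hsd3b7*, an enzyme of bile acid synthesis, was higher in CD34hi at 105, 110 and 99.5 against 39.2, 59.1 and 46.1 CPM (log2 fold change 1.13, SE 0.16, adjusted p = 0.00065), whereas *Nsdhl*, an enzyme of cholesterol synthesis, did not pass (−0.15, adjusted p = 0.490).

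Besides *Hsd11b1*, the genes *H6pd* and *Hsd11b2* were higher in CD34lo. *H6pd*, which supplies 11β-HSD1 with NADPH in the endoplasmic reticulum, was at 39.2, 43.9 and 60.4 CPM in CD34hi and 92.5, 101 and 92.9 CPM in CD34lo (log2 fold change −0.998, SE 0.16, adjusted p = 0.00164). *Hsd11b2*, whose enzyme runs the opposite reaction, was at 0.805, 0.883 and 1.54 CPM in CD34hi and 4.57, 4.31 and 3.66 CPM in CD34lo (log2 fold change −1.95, SE 0.30, adjusted p = 0.0011). As for *Hsd11b1*, the CD34hi library of pool 3 had the highest level of its population in both genes. *Hsd11b1* exceeded *Hsd11b2* per kb by 25.9, 31.9 and 73.2-fold in CD34hi and by 43.3, 48.6 and 67.6-fold in CD34lo, so that the ranges overlapped. *Cbr1*, a carbonyl reductase, was higher in CD34hi (log2 fold change 0.47, SE 0.12, adjusted p = 0.0172), a call that was lost without the CD34hi library of pool 2 (0.48, adjusted p = 0.0583), the CD34lo library of pool 2 (0.42, adjusted p = 0.0504), or both libraries of pool 1 (0.47, adjusted p = 0.103) or pool 2 (0.43, adjusted p = 0.143).

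Genes for the synthesis of steroids from cholesterol gave no common direction. Over all 6 libraries, *Cyp11a1*, the side-chain cleavage enzyme, had 1 count and *Cyp19a1*, the aromatase, had 0. Of 8 genes tested, 3 were higher in CD34hi and 2 in CD34lo. *Por*, the electron donor of microsomal P450 enzymes, was at 104, 92.5 and 71.4 CPM in CD34hi and 237, 194 and 157 CPM in CD34lo (log2 fold change −1.13, SE 0.19, adjusted p = 0.00183). *Tspo*, a protein of the outer mitochondrial membrane, was higher in CD34hi (0.65, SE 0.15, adjusted p = 0.00902), and *Fdxr*, which feeds electrons to mitochondrial P450 enzymes, was higher in CD34lo (−0.77, SE 0.16, adjusted p = 0.00521). The *Fdxr* call was lost without both libraries of pool 1 (−0.74, adjusted p = 0.0540) or pool 2 (−0.66, adjusted p = 0.0642). *Cyp21a1*, the 21-hydroxylase, passed at 0.492, 0.883 and 1.06 against 0.313, 0.359 and 0.161 CPM (1.53, SE 0.48, adjusted p = 0.0353), but the call was lost in 10 of 17 alternative analyses, among them the block (1.47, adjusted p = 0.0550) and the removal of any pool. *Cyb5a*, *Stard3* and *Star* did not pass, with log2 fold changes between −0.21 and 0.33.

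Of 6 tested genes of oxysterol and estrogen hydroxylation, 3 were higher in CD34lo, 1 was higher in CD34hi and 2 did not pass. *Ch25h*, the cholesterol 25-hydroxylase, was at 0.984, 1.16 and 0.992 CPM in CD34hi and 13.0, 7.66 and 8.58 CPM in CD34lo (log2 fold change −3.23, SE 0.26, adjusted p = 3.18e-05). *Cyp39a1*, an oxysterol hydroxylase, was at 8.76, 8.64 and 14.7 CPM in CD34hi and 48.2, 43.3 and 69.9 CPM in CD34lo (−2.33, SE 0.26, adjusted p = 0.000191), and *Cyp46a1*, the cholesterol 24-hydroxylase, had a log2 fold change of −1.25 (SE 0.26, adjusted p = 0.00558). In the same list, *Cyp27a1* (0.03, adjusted p = 0.904) and *Cyp7b1* (−0.77, adjusted p = 0.102) did not pass, and with the block *Cyp7b1* did (−0.70, adjusted p = 0.0221). In the list of sulfation genes, *Sult5a1* was higher in CD34hi (1.16, SE 0.16, adjusted p = 0.00065) and the other 4 tested genes did not pass, including *Sumf1*, *Papss1* and *Papss2*, with log2 fold changes between −0.14 and 0.26.

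Receptors for steroids were examined next. *Pgr*, the progesterone receptor, was at 33.2, 119 and 18.9 CPM in CD34hi and 0.590, 0.935 and 1.32 CPM in CD34lo (log2 fold change 5.96, SE 0.76, adjusted p = 0.000419), and without the CD34hi library of pool 2 the log2 fold change was 4.83. *Esr1*, the estrogen receptor α, was at 102, 97.6 and 109 CPM in CD34hi and 21.6, 34.1 and 24.9 CPM in CD34lo (1.94, SE 0.17, adjusted p = 5.45e-05). *Pgr* had the direction of *Akr1c18*, whose enzyme acts on progesterone, but 16.9% of all tested genes also passed as higher in CD34hi. A link between the receptor and the enzyme was not tested. *Gper1*, a membrane receptor for estrogen, rested on 6, 1 and 5 counts in CD34hi and 36, 10 and 8 counts in CD34lo (−2.20, SE 0.64, adjusted p = 0.0268), and lost its call without any 1 of the CD34hi libraries (adjusted p = 0.0583 to 0.104) or without both libraries of pool 2 or pool 3. *Nr3c1*, the glucocorticoid receptor, did not pass at 209, 213 and 199 CPM in CD34hi and 161, 198 and 170 CPM in CD34lo (0.23, SE 0.12, adjusted p = 0.174). *Nr3c2*, the mineralocorticoid receptor, did not pass either (−0.49, SE 0.22, adjusted p = 0.120), but did with the block (−0.50, adjusted p = 0.0383). *Esr2* had too few counts to be tested.

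Genes that glucocorticoids are known to induce were split. Of 10 tested, 5 were higher in CD34lo, 2 were higher in CD34hi and 3 did not pass. *Tsc22d3*, which encodes the glucocorticoid-induced leucine zipper, was at 179, 157 and 107 CPM in CD34hi and 333, 433 and 255 CPM in CD34lo (log2 fold change −1.20, SE 0.24, adjusted p = 0.00449), and *Angptl4* was lower in CD34hi as well (−1.70, SE 0.40, adjusted p = 0.0100). *Angptl4* was at 83.1 CPM in the CD34hi library of pool 3 against 29.9 and 34.5 CPM in the other CD34hi libraries, and without that library the log2 fold change was −2.30. In the opposite direction, *Zbtb16* was at 60.3, 73.0 and 70.3 CPM in CD34hi and 11.9, 28.8 and 14.1 CPM in CD34lo (1.90, SE 0.30, adjusted p = 0.00138), and *Glul*, the glutamine synthetase, had a log2 fold change of 1.59 (SE 0.21, adjusted p = 0.000447). *Dusp1*, *Fkbp5* and *Lcn2* did not pass, with log2 fold changes between −0.06 and 0.21.

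*Ahr*, the aryl hydrocarbon receptor that induces *Cyp1b1*, was at 8.81, 7.23 and 15.9 CPM in CD34hi and 24.2, 34.4 and 43.1 CPM in CD34lo (log2 fold change −1.67, SE 0.31, adjusted p = 0.00329). Among its targets, *Aldh3a1* was also higher in CD34lo, from 12, 4 and 9 counts in CD34hi and 83, 25 and 14 counts in CD34lo (−2.31, SE 0.56, adjusted p = 0.0122). That call was lost without the CD34hi library of pool 2 (−2.04, adjusted p = 0.0532), the CD34lo library of pool 1 (−1.74, adjusted p = 0.0564), or both libraries of pool 1 (−2.05, adjusted p = 0.0728) or pool 2 (−2.10, adjusted p = 0.0720). The other 5 of 7 genes of this list did not pass, among them *Tiparp*, *Arnt* and *Ugt1a6a*, with log2 fold changes between −0.30 and 0.09.

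**Figure D5:**
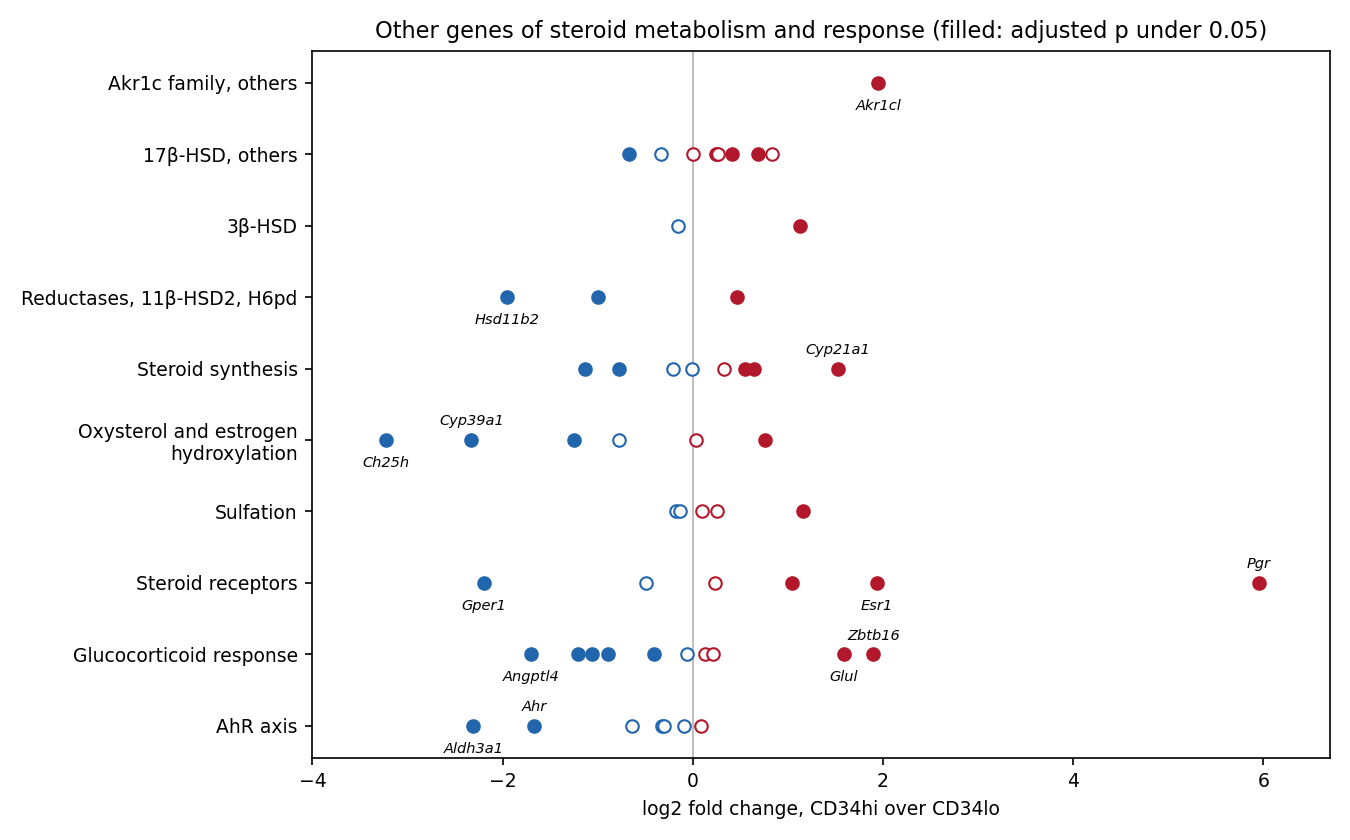
Log2 fold change of CD34hi over CD34lo for the 57 tested genes of the 10 lists, with filled points where the adjusted p from edgeR is under 0.05, red for higher in CD34hi and blue for higher in CD34lo. *Pgr* (5.96) and *Ch25h* (−3.23) lie at the ends, and the lists hold 15 filled points on the CD34hi side and 16 on the CD34lo side. Of all tested genes, 16.9% and 18.7% passed on these sides.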

How the data were processed

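RNA was extracted from sorted fibroblasts with a miRNeasy kit, and libraries were made with the TruSeq RNA v2 protocol and sequenced on an Illumina NextSeq 500. Reads had been aligned to the mouse assembly GRCm38/mm10, and Rsubread 2.2.6 was used for counting; the authors deposited raw counts per gene, not normalized. The gene annotation, the strand setting and the handling of reads that match several genes are not given in the sources used here. Gene symbols were assigned to 25275 of 27179 gene IDs from RefSeq (GRCm38.p6), and sequences were taken from RefSeq promoters and GENCODE transcripts.

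Populations were taken from the labels. Genes passing filterByExpr were TMM-normalized and tested with edgeR 4.0.16 (R 4.3.3) by its quasi-likelihood test, and p-values were adjusted over 15219 genes after Benjamini and Hochberg. CPM used TMM-scaled totals, within-pool differences used log2 CPM with a prior count of 2, and levels between genes were compared per kb of the deposited gene length. The common biological coefficient of variation was 19.7%. The replicates are pools of different mice. The steps were run on simulated counts drawn without a pool effect, so that run did not test the pairing of libraries.

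The 10 enzymes and all lists were chosen with earlier results of these data known. Named genes were the enzymes, all Akr1c genes, window genes past the threshold, steroid receptors, and, per list, up to 4 genes with the largest change past the threshold and up to 3 of the most abundant that did not pass. Of 86 listed genes, 85 matched the table. Some items are counted within their lists but not reported here by name.

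Both populations of a pool came from the same mice, so the pool number pairs libraries. The deviations of same-pool libraries from their population means correlated across genes at r = 0.279, 0.0844 and 0.243. A fit with the pool as a block was an alternative, as were limma-voom (limma 3.58.1), DESeq2 1.42.0, other scalings, filters, thinned counts and leaving out libraries.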

Additional observations from a re-analysis of the deposited data

How the results depend on the processing

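Of 5411 genes that differed between CD34hi and CD34lo, 3468 passed without pool 1, and leaving out libraries gave 3468 to 5236. With the pool as a replicate block 6161 passed, and under upper-quartile scaling 42.2% of the calls were higher in CD34hi against 47.5%. Among the other steroid genes, 22 to 33 passed against 31 (32 with the block), and among the 10 enzymes 5 to 8 against 7 (8 with the block). The enzyme counts are a description only, since those genes were picked with this comparison known. Over 9 enzymes and 161 comparisons with an alternative, 145 changed neither sign nor call, 6 lost the call, 6 gained it and 4 changed sign. Over 47 other named genes and 840 comparisons these numbers were 757, 41, 12 and 30. The calls that changed with the block were gains of *Srd5a3*, *Cyp7b1* and *Nr3c2* and the loss of *Cyp21a1* under edgeR, and a gain of *Cyb5a* under limma-voom.

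Each change of sign was in a gene that did not pass, and the cause was not tested. *Hsd17b11* was at −0.028 under upper-quartile scaling and between −0.10 and 0.17 with libraries left out. *Hsd17b12* was at −0.013 under limma-voom, −0.053 under upper-quartile scaling, −0.015 with at least 10 counts in every library, −0.0037 and −0.0066 with the block under edgeR and limma-voom and −0.016 with thinned counts, and between −0.21 and 0.20 with libraries left out. *Star* was at 0.020 without a filter and 0.019 with the block, and between −0.14 and 0.25 with libraries left out. *Cyp27a1* was at −0.021 under upper-quartile scaling and −0.0045 with thinned counts, and between −0.15 and 0.28 with libraries left out. With libraries left out, *Papss2* lay between −0.25 and 0.050, *Dusp1* between −0.25 and 0.18, *Lcn2* between −0.062 and 0.45, *Tiparp* between −0.090 and 0.31 and *Ugt1a6a* between −0.31 and 0.083. *Akr1c12*, *Gper1*, *Aldh3a1* and *Cyp21a1* rested on few counts, and *Sult1e1* had too few to be tested. With counts thinned to the smallest library total, *Akr1c12*, *Aldh3a1* and *Cyp21a1* still passed. *Gper1* gave a result in only 14 of 18 alternative analyses.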
